A study of Mus musculus with 3 samples.

Results

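Elf1 and Mbnl1 carried regions of histone H3 lysine 4 trimethylation (H3K4me3) that were among those with most reads in mouse pro-B cells, and the 2 loci were chosen for that strength. They are 2 of 18461 H3K4me3 regions formed from 1 kb bins. The Elf1 window was 120 kb on chromosome 14 (mm9, 79870001 to 79990000), with its strongest part at 79914001 to 79925000. The Mbnl1 window was 180 kb on chromosome 3 (mm9, 60260001 to 60440000), with its strongest part at 60272001 to 60291000. The windows and their strongest parts were set from reads of these libraries, so their height is given as a description.

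Chromatin immunoprecipitation and sequencing (ChIP-seq) was measured with 1 library per antibody in 3 libraries. One antibody recognises histone H3 whose arginine 2 is symmetrically dimethylated (H3R2me2s). Another recognises this together with H3K4me3 on the same tail (H3R2me2sK4me3, here the combined mark), and the last recognises H3K4me3. Per the labels the first pair was raised in the submitting laboratory and the last was bought, so mark and antibody source cannot be told apart. The cells, labelled with the strain C57BL/7, were RAG2-/- and Abelson-transformed, that is early B-lineage cells without a subunit of the antigen receptor recombinase, grown as a line with the Abelson oncogene. All 3 libraries share this genotype, and no treatment, input library or IgG library entered the comparisons. The genotype and cell type were not checked against marker genes, since no annotation on mm9 was used.

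Elf1 is a transcription factor of the ETS family that is known for its part in lymphoid gene expression. Mbnl1 is a muscleblind-like protein that binds RNA and directs alternative splicing; it is known from myotonic dystrophy, in which it is trapped by expanded repeats. H3K4me3 marks nucleosomes next to active gene starts, where it is written by SET1 and MLL complexes that hold the subunit WDR5. H3R2me2s is written by arginine methyltransferases such as PRMT5 and PRMT7 and has been described as a mark that lets WDR5 bind, whereas the asymmetric form of the same methylation hinders H3K4 methylation.

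The RefSeq promoter table gives each of the genes 2 starts. Its sequences are shown because the starts of a gene differ in their CG dinucleotides, and because the spacing of the starts is set beside the spacing of the marks further on. Each sequence spans the start on the plus strand of GRCm38.p6, and capitals mark CG dinucleotides.
Elf1 first start, chr14:79480944-79481243: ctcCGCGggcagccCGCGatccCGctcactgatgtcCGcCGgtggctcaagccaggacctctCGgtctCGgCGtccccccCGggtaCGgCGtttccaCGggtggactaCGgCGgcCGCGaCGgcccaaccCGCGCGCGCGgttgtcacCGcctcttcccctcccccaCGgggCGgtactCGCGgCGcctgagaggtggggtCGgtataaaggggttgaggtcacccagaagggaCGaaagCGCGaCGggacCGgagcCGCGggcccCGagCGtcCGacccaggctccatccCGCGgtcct
Elf1 second start, chr14:79515424-79515723: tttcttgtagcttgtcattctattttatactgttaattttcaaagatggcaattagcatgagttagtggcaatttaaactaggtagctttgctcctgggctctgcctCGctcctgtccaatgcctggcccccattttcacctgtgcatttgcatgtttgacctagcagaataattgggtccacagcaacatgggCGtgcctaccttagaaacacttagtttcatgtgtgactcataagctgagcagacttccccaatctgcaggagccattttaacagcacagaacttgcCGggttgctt
Mbnl1 first start, chr3:60472580-60472879: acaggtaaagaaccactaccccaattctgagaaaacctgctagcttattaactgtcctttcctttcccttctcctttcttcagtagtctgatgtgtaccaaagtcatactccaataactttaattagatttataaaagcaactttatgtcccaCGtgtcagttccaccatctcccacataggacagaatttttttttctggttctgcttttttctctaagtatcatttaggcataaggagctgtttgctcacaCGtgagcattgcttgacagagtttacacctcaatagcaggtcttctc
Mbnl1 second start, chr3:60500929-60501228: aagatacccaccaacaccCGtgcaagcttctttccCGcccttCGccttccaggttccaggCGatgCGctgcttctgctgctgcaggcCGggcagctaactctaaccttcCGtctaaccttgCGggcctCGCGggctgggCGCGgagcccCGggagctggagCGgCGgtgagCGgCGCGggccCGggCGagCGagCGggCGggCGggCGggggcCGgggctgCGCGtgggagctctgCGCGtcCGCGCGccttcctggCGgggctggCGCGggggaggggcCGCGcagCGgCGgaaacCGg

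The first Elf1 start held 43 CG dinucleotides in its 300 bases, and 2.61% of the 32851 promoter windows in the table held as many or more. The second Elf1 start held 3, which 76.7% of promoters reached. For Mbnl1 the order was the other way round, with 2 CG dinucleotides at the first start (85.9% of promoters reached this) and 41 at the second (3.46%). The median over all promoters was 7. CG reads the same on both strands, so each was counted once.

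The H3R2me2s library had 6923765 reads, that of the combined mark 7128852 and that of H3K4me3 13898471, each of 39 bases. A 1 kb bin was called at 15, 16 and 25 reads or more, which is at least 4 times the mean of the library. Background is the mean over bins that lie over 5 kb away from called bins, and was 2.35, 1.86 and 2.98 reads per bin. CPM is the usual depth-scaled read count, in which reads are scaled to the library's total of mapped reads. The region with most H3R2me2s reads, on chromosome 2 at 101481001 to 101485000, held 3354 and 3215 reads of the R2 marks but 60 of H3K4me3, so the libraries differed there; the cause was not tested. Intervals are exact 95% intervals of read counts. They cover counting error within a library only, and no difference between antibodies has a replicate check or a p-value.

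The strongest part of Elf1 held 938 H3R2me2s reads (135 CPM, 127 to 144), 2372 reads of the combined mark (333 CPM, 320 to 346) and 4861 H3K4me3 reads (349.8 CPM, 340.0 to 359.7). As H3K4me3 region it ranked 1 by reads, and the regions called within it for H3R2me2s and the combined mark ranked 4 and 3. The strongest part of Mbnl1 held 809 H3R2me2s reads (117 CPM, 109 to 125), 1743 reads of the combined mark (244 CPM, 233 to 256) and 4124 H3K4me3 reads (297 CPM, 288 to 306), and the corresponding ranks were 7 for H3K4me3, 9 for H3R2me2s and 14 for the combined mark. The highest single bins did not follow the order of the totals in H3R2me2s and H3K4me3. The highest 1 kb bin of Mbnl1 had 263 H3R2me2s reads and 1051 H3K4me3 reads, above the 226 and 938 reads of the highest Elf1 bin, while the combined mark had 607 and 612 reads. Elf1 ranked higher by total reads, and Mbnl1 by its highest bin of H3R2me2s and H3K4me3.

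**Figure D1:**
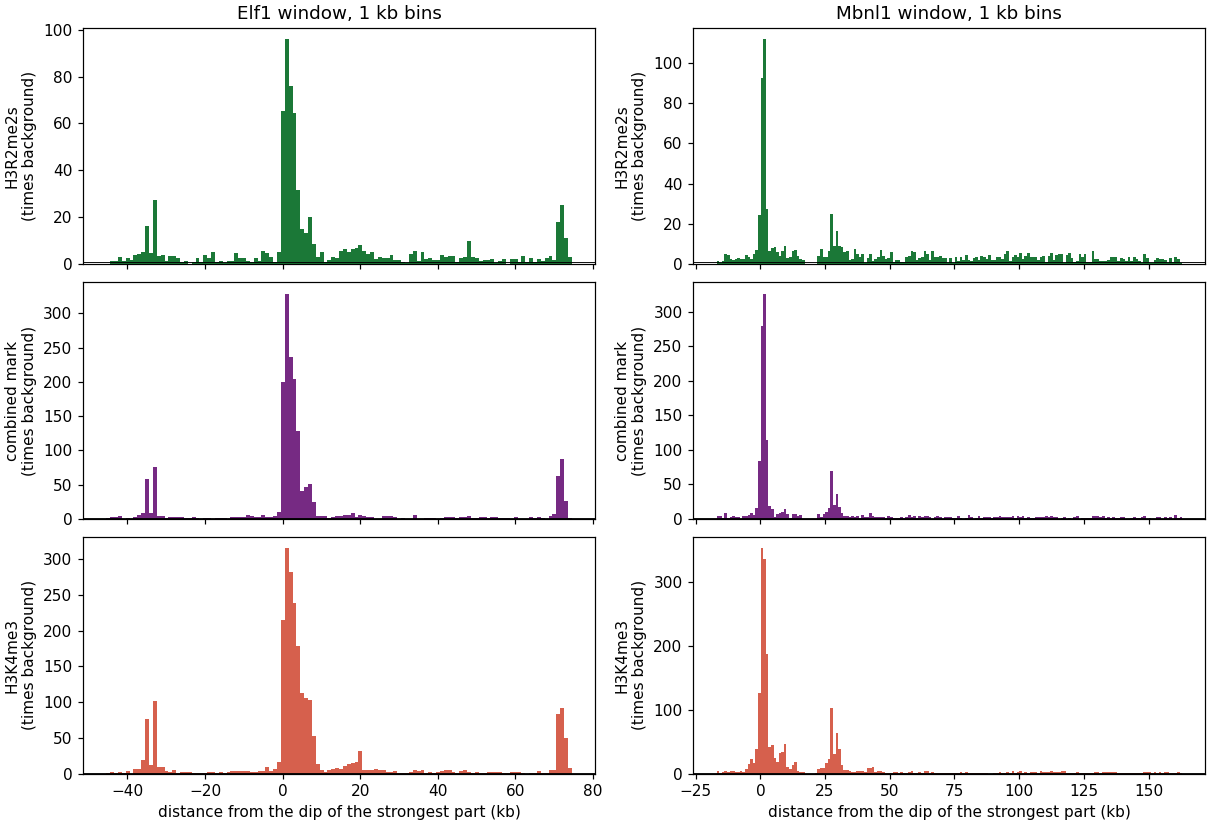
Reads in 1 kb bins across the Elf1 window (left) and the Mbnl1 window (right), as multiples of background, for H3R2me2s, the combined mark and H3K4me3 from top to bottom; x is the distance from the dip that is described in the text, the line stands at 1, and each row and column has its own y axis. Elf1 shows 1 high block that falls off to the right and lower stretches on both sides, and Mbnl1 a narrow peak with a lower stretch to its right.

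A narrow dip stood at the left side of the high signal in both genes. It is defined as the lowest 100 bp bin of H3K4me3 in the 500 bp before the first bin that reached 50% of the highest. That rule always returns a bin, so the dip serves as a reference point. In Mbnl1 the bin at 60279401 to 60279500, within the high signal, was lower than the dip, with 9 H3K4me3 reads. For Elf1 the dip lay at 79915401 to 79915500, with 2 H3R2me2s reads, 4 combined mark reads and 7 H3K4me3 reads. The bin before it held 3, 22 and 29 reads and the bin after it 16, 41 and 86. The Mbnl1 dip lay at 60276901 to 60277000 with 3, 8 and 15 reads, between bins of 6, 28 and 65 reads and of 7, 22 and 54 reads. Both genes thus had signal on both sides of the dip, with less before it in Elf1. In the 500 bp before the dip there were 141 H3K4me3 reads in Elf1 and 249 in Mbnl1.

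Reads on either side of the dip were compared next. In Elf1 the 500 bp after the dip held 8.62 times as many H3R2me2s reads as the 500 bp before it (5.13 to 15.5). The combined mark had a ratio of 4.77 (3.64 to 6.33) and H3K4me3 one of 3.60 (2.98 to 4.37), and the H3R2me2s and H3K4me3 intervals do not overlap. The H3R2me2s interval overlaps that of the combined mark and rests on 16 reads before the dip. In Mbnl1 the ratios were 2.46 (1.71 to 3.60), 2.58 (2.06 to 3.26) and 2.14 (1.83 to 2.49), with overlapping intervals. Of all reads in the strongest part, 2.78% (1.82 to 4.04), 3.21% (2.54 to 4.001) and 3.60% (3.10 to 4.17) lay before the dip in Elf1, with overlapping intervals, and 12.3%, 12.4% and 15.5% in Mbnl1.

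After the dip Elf1 held a plateau of several kb and Mbnl1 a narrow block. Bins at 50% or more of the highest H3K4me3 bin, called the core, covered 5 kb in Elf1 (79915001 to 79920000) and 3 kb in Mbnl1 (60277001 to 60280000). In the 5 Elf1 core bins H3K4me3 went 640, 938, 839, 712 and 531 reads, the combined mark 371, 612, 439, 381 and 238, and H3R2me2s 154, 226, 179, 152 and 75. All 3 marks peaked in the same bin and fell in the same order. In the 3 Mbnl1 core bins H3K4me3 went 1051, 1001 and 557 reads, the combined mark 521, 607 and 212, and H3R2me2s 217, 263 and 64. Here the highest bin of the R2 marks came 1 bin later than that of H3K4me3. The 1051 and 1001 H3K4me3 reads are close, so an offset of the peaks is not established.

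Beyond the core, H3K4me3 stood on a shoulder on which the other marks were lower. In the 4 Elf1 bins that follow the core there were 337, 313, 308 and 155 H3K4me3 reads, beside 77, 87, 95 and 45 reads of the combined mark and 35, 31, 47 and 20 of H3R2me2s. The Elf1 core stood at 66.8 times background in H3R2me2s, at 219 times in the combined mark and at 246 times in H3K4me3, and the other bins of the strongest part at 10.8, 29.6 and 67.2 times. The Mbnl1 core stood at 77.0, 240.0 and 292.0 times background and its other bins at 7.03, 13.5 and 31.8 times. Of the Elf1 reads, 83.8% of H3R2me2s (81.3 to 86.1), 86.0% of the combined mark (84.6 to 87.4) and 75.3% of H3K4me3 (74.1 to 76.5) lay in the core. In Mbnl1 the shares were 67.2% (63.9 to 70.5), 76.9% (74.8 to 78.8) and 63.3% (61.8 to 64.7). The combined mark was the most concentrated mark in Mbnl1, while in Elf1 it and H3R2me2s were alike within their intervals and both more concentrated than H3K4me3.

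**Figure D2:**
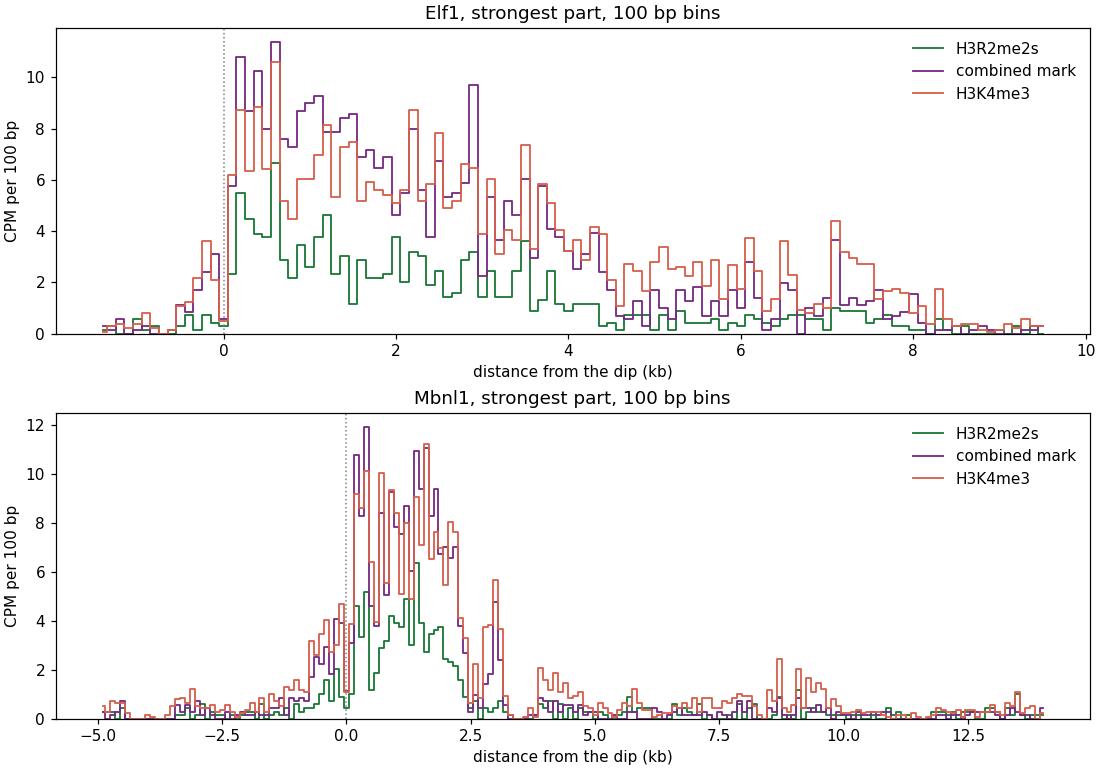
CPM per 100 bp bin along the strongest part of Elf1 (top) and Mbnl1 (bottom) for the 3 libraries; x is the distance from the dip (dotted line). The marks rise together after the dip, and in Elf1 H3K4me3 stays above the combined mark on most of the shoulder that begins about 4.55 kb after it.

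The position of the reads differed too. At Elf1 the median read lay 2004 bp after the dip in H3R2me2s (1826 to 2175), 1914 bp in the combined mark (1832 to 2054) and 2521 bp in H3K4me3 (2463 to 2598). H3K4me3 was thus centred farther from the dip than the other marks, beyond the intervals. The span from the 10th to the 90th percentile of reads was 5641, 5188 and 6250 bp. At Mbnl1 the medians were 1362 bp (1237 to 1417), 1275 bp (1187 to 1365) and 1440 bp (1398 to 1494), of which the combined mark and H3K4me3 had intervals that do not overlap; with libraries thinned to equal depth, or on reads of 1 strand, they do overlap. The spans were 8370 bp for H3R2me2s and 8347 bp for H3K4me3, while the combined mark covered 3283 bp. Background was not subtracted from these positions, and it takes a larger part of the H3R2me2s reads than of the others.

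The strongest parts are H3K4me3 regions by definition, so nearly all of their bins passed the H3K4me3 limit, 11 of 11 in Elf1 and 18 of 19 in Mbnl1. Within them the combined mark was called in 10 and 11 bins and H3R2me2s in 9 and 12. Over the whole windows, with libraries thinned to equal depth, H3R2me2s was called in 19 bins of Elf1 and 27 of Mbnl1, the combined mark in 16 and 18, and H3K4me3 in 23 and 25. At full depth, which all other counts and shares of this paragraph use, the windows had 19 and 27, 15 and 18, and 26 and 28 called bins. At the left edge of Elf1 the H3K4me3 counts went from 18 outside to 49 inside the limit of 25, and at the right edge from 39 inside to 17 outside. At Mbnl1 they went from 23 to 44 on the left and from 56 to 14 on the right. Over all bins with a read, 1.23% passed the H3R2me2s limit, 1.45% that of the combined mark and 2.45% that of H3K4me3; the windows were chosen on this signal, so nothing is read from the difference.

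The balance of the marks changed along each region. The antibodies have no common calibration, so a CPM ratio describes the libraries and is not a share of marked histones. In the strongest part the CPM ratio of H3R2me2s to H3K4me3 was 0.387 in Elf1 (0.361 to 0.415) and 0.394 in Mbnl1 (0.365 to 0.425). Elf1 over Mbnl1 gives 0.984 (0.886 to 1.09), so a difference was not detectable. The ratio of the combined mark to H3K4me3 was 0.951 (0.905 to 0.999) and 0.824 (0.779 to 0.872), higher in Elf1 by 1.15 times (1.07 to 1.25). With 1 read kept per position and strand the Elf1 ratio was 1.08 (1.03 to 1.14), so its side of 1 depends on repeated reads. In the cores alone these ratios were 1.09 (1.03 to 1.15) and 1.00 (0.937 to 1.07), and the difference of 1.09 times had an interval that includes 1 (0.996 to 1.18).

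From core to shoulder the combined mark lost more than H3K4me3 in both genes. Its ratio to H3K4me3 was 0.537 (0.474 to 0.607) outside the Elf1 core and 0.519 (0.464 to 0.579) outside the Mbnl1 core, and core over rest came to 2.02 (1.77 to 2.32) and 1.93 (1.70 to 2.20). H3R2me2s per H3K4me3 was 0.431 in the Elf1 core (0.399 to 0.466) and 0.254 outside it (0.213 to 0.301), which gives 1.70 (1.41 to 2.06). With the core set at 33% of the highest bin the Elf1 value was 1.27, with an interval that includes 1 (0.995 to 1.63). In Mbnl1 the values were 0.419 (0.381 to 0.459) and 0.351 (0.307 to 0.400), and core over rest was 1.19 (1.01 to 1.40). That Mbnl1 value depended on the third core bin, whose 557 H3K4me3 reads lie close to the 50% level: with the core set at 67% of the highest bin it was 1.47, and with libraries thinned to equal depth 1.49. With a 33% core it was 1.11 (0.933 to 1.33) and on forward reads 1.16 (0.918 to 1.48), and both of these intervals include 1. Outside the core H3R2me2s per H3K4me3 was lower in Elf1 than in Mbnl1, by a factor of 0.723 (0.580 to 0.8998). With genome-wide background subtracted the values were 0.234 and 0.311. The segments are unlike, 6 kb in Elf1 and 16 kb in Mbnl1, with H3R2me2s at 10.8 and 7.03 times background. The level around each gene was not subtracted, so a difference of the shoulders themselves is not established.

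**Figure D3:**
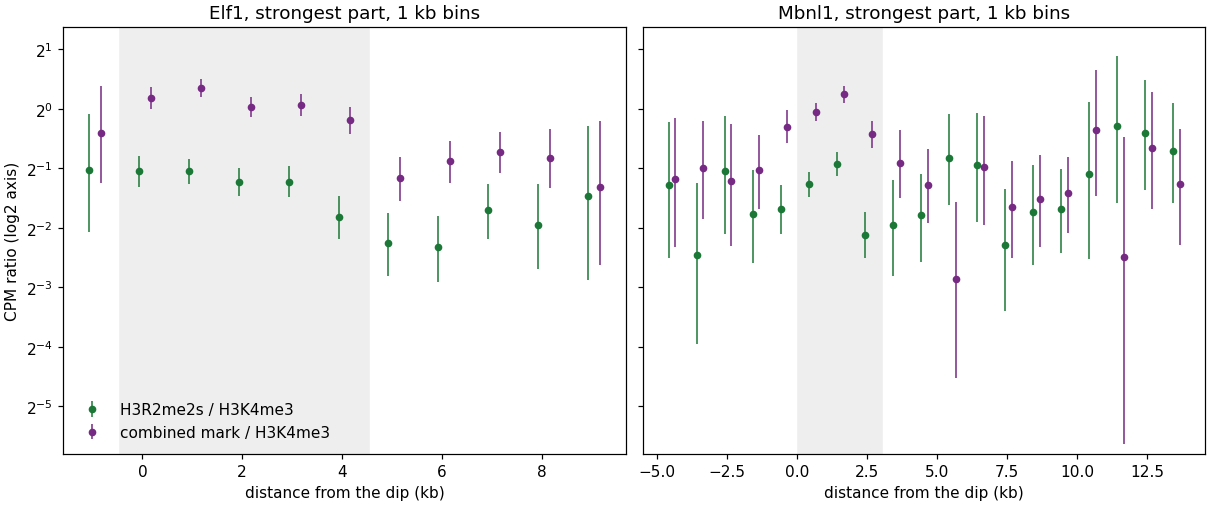
CPM ratio of H3R2me2s (green) and of the combined mark (purple) to H3K4me3 in each 1 kb bin of the strongest parts, on a log2 axis, against distance from the dip; bars are exact 95% intervals and the core is shaded. In Elf1 the combined mark ratio is lower in all bins after the shaded core. The H3R2me2s ratio of Elf1 falls already in the last core bin, from 0.429 to 0.284, and is 0.199 to 0.360 after it. In Mbnl1 the combined mark falls from 1.18 in the second core bin to 0.742 in the next.

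After the Mbnl1 core the balance of the R2 marks changed. In the 11 bins after its core there were 163 H3R2me2s reads and 180 of the combined mark, a CPM ratio of 0.932 (0.750 to 1.16), where the core had 0.418 (0.378 to 0.462). With genome-wide background subtracted these were 0.885 and 0.414. The level farther along the window, 7.46 H3R2me2s and 4.33 combined mark reads per kb, was not subtracted. It would take a larger part of the reads after the core than of those in it. The 5 bins before the core had 0.471 (0.369 to 0.598). In Elf1 the ratio was 0.396 in the core (0.365 to 0.431) and 0.462 after it (0.376 to 0.566), with overlapping intervals. Within the cores the marks went up and down together over 100 bp bins. Pearson's r with H3K4me3 was 0.828 for H3R2me2s and 0.875 for the combined mark over 50 bins of Elf1, and 0.755 and 0.923 over 30 bins of Mbnl1. These bins share base composition and ease of mapping across libraries, so the values are given as descriptions.

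The same measures were taken in the other 408 H3K4me3 regions of 10 kb or more, most of them far weaker, with a median of 123 H3K4me3 reads per kb where Elf1 had 442 and Mbnl1 217. H3R2me2s per H3K4me3, core over rest, had a median of 0.934 over those regions, and of 1.05 with background subtracted, so its side of 1 depends on that step. With the core at 50% throughout, the 1.70 of Elf1 was above 405 of 408 regions and the 1.19 of Mbnl1 above 330. With background subtracted Elf1 had 1.82, above 398 regions, and Mbnl1 1.33, above 328. With a 33% core in every region they were above 370 and 321 of 405. The 3 regions nearest to Elf1 in width, level and balance, on chromosomes 11 and 13, had 1.496, 1.42 and 1.16 in order of distance. Values above the upper quartile of the other regions, 1.13, were thus not particular to Elf1, but none of the 3 reached its 1.70. For the combined mark the median was 1.43, and Elf1 and Mbnl1 were above 382 and 372 regions. The H3R2me2s to H3K4me3 ratio of the whole strongest part was ordinary in both genes, above 168 and 193 regions. The combined mark to H3K4me3 ratio was above 367 regions in Elf1 and 225 in Mbnl1, and H3R2me2s to the combined mark was above 14 in Elf1 and 193 in Mbnl1. The core of Elf1 was wider than that of 343 regions, although its whole width of 11 kb was the median, while the 19 kb of Mbnl1 exceeded 393 regions with a core of 3 kb, the median.

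**Figure D4:**
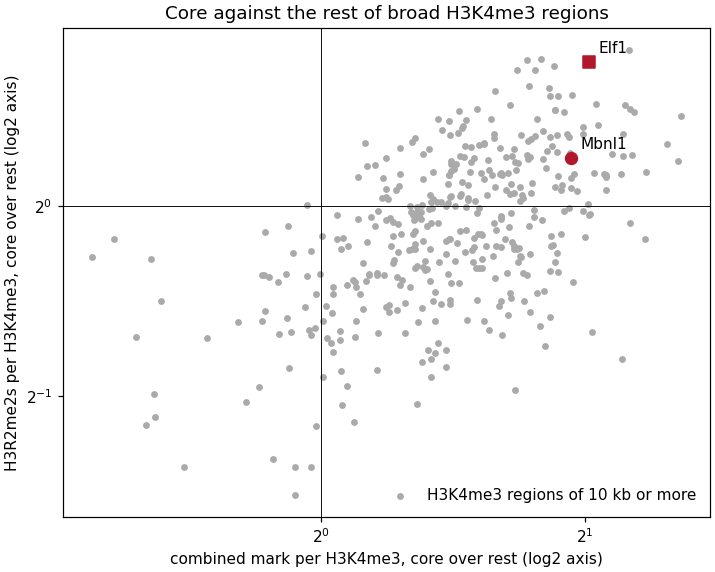
For each H3K4me3 region of 10 kb or more (grey), H3R2me2s per H3K4me3 (y) and the combined mark per H3K4me3 (x) in the core divided by the same in the rest of the region, on log2 axes, with lines at 1; Elf1 (square) and Mbnl1 (circle) are red. Elf1 lies at 2.02 and 1.70 near the upper edge of the cloud, and Mbnl1 at 1.93 and 1.19.

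Each gene also had a weaker H3K4me3 stretch, and its distance from the dip resembled that between the gene's RefSeq starts. In Elf1 a 6 kb stretch at 79879001 to 79885000 reached from -36.45 to -30.45 kb from the dip, and on GRCm38.p6 the first start of Elf1 lies -34.5 kb from the second. In Mbnl1 a 9 kb stretch at 60300001 to 60309000 lay 23.05 to 32.05 kb after the dip, and the second start lies 28.3 kb after the first. These are distances within each build; positions were not converted, and the starts were not placed on mm9. If the dips are set beside the second Elf1 start and the first Mbnl1 start, the pair with few CG dinucleotides above, then the weaker stretches stand beside the pair with many. The first Elf1 start lies next to that of Wbp4 on the other strand, the gene of a WW domain protein, so by these distances signal of the 2 genes cannot be told apart.

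Each weaker stretch held a nearly empty interval. In Elf1 the interval was 79880501 to 79881400, 900 bp with 1 H3R2me2s read, 1 combined mark read and 4 H3K4me3 reads, while the 500 bp before it held 37, 109 and 226 reads and the 500 bp after it 11, 14 and 34. Its middle lay -34.5 kb from the dip. In Mbnl1 it was 60305001 to 60305700, 700 bp with 3, 0 and 5 reads beside 38, 87 and 172 reads in the 500 bp before it and 23, 53 and 121 in the 500 bp after it, and its middle lay 28.4 kb after the dip. Such intervals were not particular to the weaker stretches. The Mbnl1 strongest part held one at 60272601 to 60273400, 800 bp with 0, 0 and 5 reads. Signal beside that one was lower, with 7, 8 and 35 reads in the 500 bp before it and 5, 12 and 56 in the 500 bp after it. Only the longest such interval of each stretch was taken. A shorter one in the Mbnl1 strongest part, 60280201 to 60280600, had 2, 0, 0 and 1 H3K4me3 reads in its 100 bp bins. Signal just before that shorter one was high, with bins of 52, 53, 79, 51 and 13 H3K4me3 reads. Whether reads can be mapped in these intervals was not tested.

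In height the weaker stretches were far below the strongest parts. The Elf1 stretch held 142 H3R2me2s reads (20.5 CPM), 299 combined mark reads (41.9 CPM) and 678 H3K4me3 reads (48.8 CPM). Its CPM ratio of H3R2me2s to H3K4me3 was 0.420 (0.348 to 0.504) and that of the combined mark 0.860 (0.748 to 0.987), intervals that overlap those of the strongest part. The Mbnl1 stretch held 210 (30.3 CPM), 347 (48.7 CPM) and 910 reads (65.5 CPM), with ratios of 0.463 (0.397 to 0.539) and 0.743 (0.655 to 0.842). There H3R2me2s to the combined mark came to 0.623 (0.522 to 0.742), above the 0.478 of the Mbnl1 strongest part (0.439 to 0.520). Background was not subtracted from the ratios of these stretches. A last Elf1 stretch at 79986001 to 79989000, from 70.5 to 73.5 kb after the dip, held 127, 330 and 670 reads, with ratios of 0.380 (0.312 to 0.461) and 0.960 (0.839 to 1.10). In the RefSeq table the start of Sugt1, a co-chaperone gene, lies 71.99 kb after the second Elf1 start.

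One stretch in Elf1 had another balance. At 79931001 to 79936000, 15.6 to 20.6 kb after the dip, H3K4me3 was called in all 5 bins with 31, 39, 45, 49 and 93 reads. H3R2me2s was called in 4 of them, with 15, 12, 15, 16 and 19 reads. The combined mark was called in 0 of 5, with 10, 12, 15, 4 and 12 reads against a limit of 16. H3R2me2s per H3K4me3 was 0.601 (0.460 to 0.779), above the strongest part, and the combined mark per H3K4me3 was 0.402 (0.293 to 0.542), below it. H3R2me2s to the combined mark came to 1.496 (1.04 to 2.16), where the strongest part had 0.407 (0.377 to 0.439). The reads are few, but none of these intervals touches that of the strongest part. H3R2me2s stood at 5.10 to 8.07 times background in these bins, where the strongest part had a mean of 36.2 times. Background was not subtracted from the ratios, and neither was the level of the adjoining 50 kb, 6.0 H3R2me2s and 7.96 H3K4me3 reads per kb. Whether H3R2me2s per H3K4me3 stays above the strongest part without them was not tested.

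Across the rest of the Mbnl1 window H3R2me2s remained raised over a long distance. From 60321001 to 60440000, 119 kb without an H3K4me3 call, the counts were 888 H3R2me2s reads, 515 combined mark reads and 657 H3K4me3 reads. This was 7.46 H3R2me2s reads per kb (6.98 to 7.97), 3.17 times background, while the combined mark stood at 2.33 times and H3K4me3 at 1.85 times. The signal was low and spread out, with a median of 7 and a highest bin of 17 H3R2me2s reads, and 6 of its bins passed the limit of 15. Of 7035 tiles of the same length elsewhere in the genome that also lacked H3K4me3 calls, 0 reached its H3R2me2s reads and 0 those of the combined mark, while 36 (0.512%) reached its H3K4me3 reads. The tiles include silent chromatin, with a median of 1.79 H3R2me2s reads per kb. The CPM ratio of H3R2me2s to H3K4me3 in the 119 kb was 2.71 (2.45 to 3.01), reached by 60 tiles (0.853%). The median tile had 1.52, so a ratio above 1 is usual in chromatin without H3K4me3 calls.

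A closer comparison is with chromatin beside other broad regions. Between 30 and 100 kb from each H3K4me3 region of 10 kb or more, outside called bins and on the side with more H3R2me2s, the median level was 1.98 times background over 405 other regions. Mbnl1 stood at 3.46 times, above 403 of them, with H3K4me3 at 1.89 times, above 134. Elf1 stood at 1.91 times for H3R2me2s, above 179. In 20 kb tiles after the Mbnl1 dip, H3R2me2s held 3.48 times background at 20 to 40 kb and 3.78 times at 100 to 120 kb (3.25 to 4.38). It was 2.36 times at 140 to 160 kb, 1.78 at 160 to 180 kb and 1.06 at 180 to 200 kb (0.788 to 1.40), just beyond the window. H3K4me3 was already down to 1.44 times at 80 to 100 kb (1.16 to 1.78), where H3R2me2s was at 3.40 (2.89 to 3.97), but stood at 2.69 times in the tile after it (2.29 to 3.14). In the Elf1 window a stretch of 50 kb without H3K4me3 calls, 79936001 to 79986000, stood at 2.55, 1.97 and 2.67 times background in the order of the marks, so there H3R2me2s and H3K4me3 were raised alike. Of 23811 tiles of that length, 37 (0.155%) reached its H3R2me2s reads and 18 (0.0756%) its H3K4me3 reads.

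**Figure D5:**
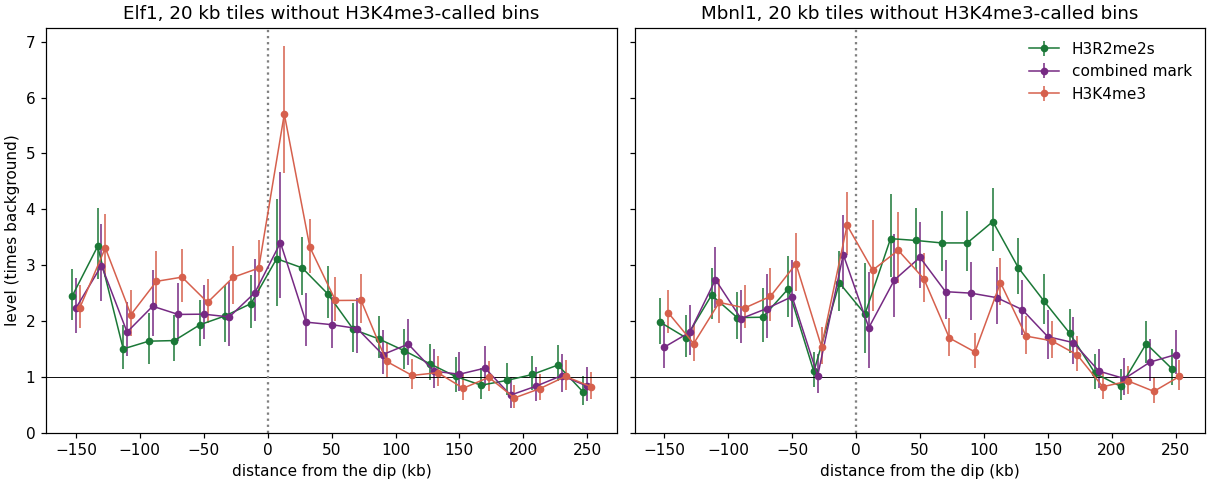
Level of the 3 marks in 20 kb tiles around the dip (dotted line) as multiples of background (line at 1), leaving out bins called for H3K4me3; bars are exact 95% Poisson intervals. In Mbnl1 (right) H3R2me2s stays between 2.95 and 3.78 times background from 20 to 140 kb after the dip, while H3K4me3 lies between 1.44 and 3.27; in Elf1 (left) all 3 marks are near 1 from 120 kb after the dip on.

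A stretch of 5100 bp in the Mbnl1 window, 60293801 to 60298900, had no read in any library, which in 3 libraries of this depth leaves the marks there unmeasured. Single bins also passed the H3R2me2s limit alone. In the 50 kb Elf1 stretch the bin at 79963001 to 79964000 had 23 H3R2me2s reads beside 7 and 6 of the others. In Mbnl1, 8 of 180 bins were called for H3R2me2s alone, with 15 to 18 reads each, which is at the edge of the limit. Of these, 6 are the called bins of the 119 kb stretch. Over all bins with a read 1.23% passed the H3R2me2s limit, and the share that passed it alone is not given here. Nothing is therefore read from the number of such bins.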

How the data were processed

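Each library's deposited file lists its mapped reads of 39 bases, and the counts used here are unscaled tallies of these deposited reads. The build was mm9, per the submitters' processing notes. The aligner, its settings and whether duplicates were filtered are not given in the sources used here. Per the labels' protocols, libraries had 15 PCR cycles and fragments of 100 to 500 bp. Reads with the position and strand of an earlier read were kept; their share was 5.22% in H3R2me2s, 2.64% in the combined mark and 6.20% in H3K4me3.

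Read positions were shifted 75 bp along their strand and tallied in bins of 1 kb and 100 bp with Python 3.11.15, numpy 2.4.6, pandas 2.3.3 and scipy 1.17.1. The mean of a library was taken over 2285014 bins with a read in any library. The limit was the larger of 4 times this mean and the lowest count whose Poisson tail is below 1e-06. Called bins with at most 1 kb between them were merged into regions. Intervals are Clopper-Pearson for shares and CPM ratios, exact Poisson for counts, exact conditional for core over rest, and order statistics for medians. Without molecular identifiers, PCR copies cannot be told from separate molecules, so intervals cover counting error only. Libraries were grouped by antibody, and no test between them was run. Calls, intervals and the dip rule were tested on simulated data. Promoter sequences come from RefSeq on GRCm38.p6, in which 2 of 2 genes matched by symbol.

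The loci, their windows and the measures were chosen with earlier results of these data known. The core, the dip, the long stretches and the comparison with broad regions were defined after their values were seen. The named genes are the 2 members; regions like them were taken by nearest distance, and other ETS and splicing genes were not analysed here for want of an mm9 annotation. Wbp4 and Sugt1 are named as neighbours.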

Additional observations from a re-analysis of the deposited data

How the results depend on the processing

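Of 192 values recomputed under 13 settings, 165 stayed within their interval (1.5 times for called bins), 26 moved and 1 changed direction, the combined mark per H3K4me3 in Elf1 (0.951, and 1.08 with 1 read per position and strand). The core and long-stretch values, and cores at 33% or 67% of the highest bin, and the broad regions net of background or with a 33% core, were added after seeing the data. Keeping 1 read per position and strand raised H3R2me2s per H3K4me3 to 0.439 in Elf1 and 0.435 in Mbnl1, and the combined mark per H3K4me3 to 0.916 in Mbnl1. It moved the H3K4me3 medians to 4173 and 6476 bp from the start of the strongest part, and Mbnl1 core over rest to 1.46 for H3R2me2s and 2.36 for the combined mark. In these parts 21.4% and 20.7% of H3K4me3 reads repeat a position, against 7.17% to 11.5% for the other libraries; at such density separate fragments can share a position, and how many do was not tested. Scaling to background gave H3R2me2s per H3K4me3 of 0.244 and 0.248, the combined mark per H3K4me3 of 0.781 and 0.676, and H3R2me2s per combined mark of 0.313 and 0.367. In Mbnl1, bins called for H3R2me2s fell from 27 to 6 at 8 times the mean and covered 10.5 kb with 500 bp bins. Mbnl1 core over rest moved for H3R2me2s per H3K4me3 to 1.49 at equal depth, 1.52 on the reverse strand and 1.47 with a 67% core. For H3R2me2s per combined mark, 0.617 in the main setting, it moved to 0.793, 0.784 and 0.795 there and to 0.480 with a 33% core. With a 33% core the combined mark gave 2.31 in Mbnl1 and 1.69 in Elf1 and H3R2me2s 1.27 in Elf1; with a 67% core the combined mark gave 1.75 in Elf1. No paired analysis was possible because the libraries are single, which also precludes leaving one out. Depth limits single H3R2me2s bins, whose limit of 15 reads compares with a background of 2.35.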

Other observations

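The H3K4me3 regions most like each gene were found among 853 regions of 8 kb or more, by Euclidean distance over log2 width, log2 H3K4me3 CPM and the log2 ratios of the other marks to H3K4me3, each divided by its SD. For Elf1 the nearest was on chromosome 11 at 11586001 to 11597000 (mm9, distance 0.290), 11 kb wide, with H3R2me2s at 117 CPM, the combined mark at 287 CPM and H3K4me3 at 301 CPM. Next were 2 regions on chromosome 13, at 83662001 to 83673000 (0.684) and 23520001 to 23532000 (0.855), with H3K4me3 of 261 and 244 CPM. For Mbnl1 the nearest was on chromosome 6 at 134866001 to 134885000 (0.507), 19 kb wide, with 113, 269 and 304 CPM, followed by chromosome 2, 6624001 to 6646000 (0.689), and chromosome 4, 44711001 to 44730000 (0.748). The width and the ratios of these regions are those used to choose them, so their likeness is a description.

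Over 100 bp bins of the cores the signal was uneven beyond counting. The CV of H3K4me3 was 0.393 over 50 bins in Elf1, where counting alone gives 0.117, and 0.440 over 30 bins in Mbnl1, where it gives 0.107. For H3R2me2s the CVs were 0.613 and 0.638, with 0.252 and 0.235 from counting alone. The Elf1 bins include its dip, with 7 H3K4me3 reads, and the fall along the core, and the Mbnl1 bins include one of 9 reads. Counting alone takes reads as independent, while 21.4% and 20.7% of H3K4me3 reads in the strongest parts repeat a position.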
